A study of Mus musculus with 12 samples.

Results

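The genes described here are those whose array name is Zfp followed by digits, the mouse stem for zinc finger proteins, with Zfp42 left out. A probe was kept when its signal was well above background on both arrays of at least 1 dye-swapped pair in the same RNA, and the brightest kept probe stood for its gene. Of 239 such genes on the chip (461 probes), 227 were kept, among 19493 genes tested in all. The 12 genes not kept were Zfp9, Zfp92, Zfp128, Zfp133, Zfp281, Zfp312, Zfp316, Zfp395, Zfp474, Zfp533, Zfp641 and Zfp697. Of the 227, 212 were well above background in both channels of all 12 arrays. RNA comparisons of 3 kinds were hybridised, each in clones 27G5 and 27H10 and each with its dyes swapped on a second array. Mouse embryonic stem (ES) cells without Dicer were set against a wild-type ES line. A derivative of each clone with a Dnmt1 overexpression label, and another with a Dnmt3a,3b overexpression label, were each set against the Dicer-null parent. All of the lines with an overexpression label therefore lack Dicer as well, and every line was grown on gelatin with leukemia inhibitory factor. The wild type was 1 line. The labels name no separate cultures, so n = 2 clones and the p-values measure the spread between these samples only, without the wild type's own spread.

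Most genes of this stem encode proteins whose C2H2 fingers each fold around a zinc ion and read a few bases of DNA. Neighbouring fingers are joined by a short conserved linker, and many of the genes stand in tandem groups on the chromosome. A large share carry a KRAB domain, which recruits TRIM28 and through it the histone H3K9 methyltransferase SETDB1 and HP1 proteins to silence retroelements and to keep DNA methylation at imprinted genes. Dicer makes microRNAs, and Dnmt1, Dnmt3a and Dnmt3b are the maintenance and de novo DNA methyltransferases. The stem is a naming convention, not a family: 182 of the 227 array names matched a current RefSeq gene, and 28 of those now carry another name, among them Zfp289 (Arfgap2), Zfp259 (Zpr1), Zfp469 (Tnrc18) and the RING finger genes Zfp179 (Rnf112), Zfp313 (Rnf114) and Zfp364 (Rnf115).

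The labelled cells were checked first. A Dicer1 probe read a log2 ratio of -4.13 in 27G5 and -4.02 in 27H10 against wild type, while the brighter Dicer1 probe read only -0.50 and -0.56. The Dnmt1 probe in the line labelled for Dnmt1 read 0.10 in 27G5 and 0.43 in 27H10 over the Dicer-null parent. In the line labelled for Dnmt3a,3b, the Dnmt3b probe read -1.46 and -0.62. The 3 Dnmt3a probes read 0.19 and 0.21, -0.38 and -1.68, and -0.12 and -1.33 in 27G5 and 27H10 of that line, and the Dnmt1 probe read 0.32 and 0.22 there, between its clone values in the line labelled for Dnmt1. The Dnmt3a and Dnmt3b values thus went against the label or stayed near 0, and whether the lines overexpress the labelled genes cannot be told from these probes. "Dnmt3a,3b line" and "Dnmt1 line" below name the labels only, also where a direction is given. Among marker genes, 4 of 5 ES cell markers were higher in Dicer-null than in wild-type cells. Lower there were 6 of 7 fibroblast markers, 4 of 6 trophoblast markers and 3 of 5 primitive endoderm markers (median log2 ratio -1.07). The other fibroblast marker, Vim, was called higher (1.39). Among all genes tested 20.5% were higher and 20.2% lower. Trophoblast markers were higher for 4 of 6 in the Dnmt1 line and 5 of 6 in the Dnmt3a,3b line, with median log2 ratios of 1.94 and 1.79 over Dicer-null. Of all genes tested 12.1% and 10.5% were higher in these lines. Of the 7 fibroblast markers, 1 was higher and 1 lower in the Dnmt1 line, and 1 was higher in the Dnmt3a,3b line. Of the 5 ES cell markers, 2 were higher in the Dnmt1 line and 1 in the Dnmt3a,3b line, and none was lower in either. Of the 5 primitive endoderm markers, none passed in the Dnmt1 line and 1 was higher in the Dnmt3a,3b line. The part of any other cell type in the Zfp results was not tested. Arrays of the Dnmt1 and Dnmt3a,3b lines of 27G5 lay on 1 slide, those of 27H10 on another and those with wild type on the third.

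In Dicer-null cells against wild type, 42 of the 227 Zfp genes were higher and 62 lower at an adjusted p under 0.05, and 123 did not pass the test. Among all 19493 genes 20.5% were higher and 20.2% lower, 40.6% in all, whereas the Zfp genes gave 18.5% and 27.3%. The median log2 ratio of the Zfp genes was -0.06 against 0.01 for all genes. Changes of at least 2-fold were called for 10 higher and 11 lower genes, where 5.68% and 5.05% of all genes tested met the same rule. Fewer Zfp genes, and fewer of all genes tested, were called with the 27G5 or the 27H10 ratio of this comparison left out. The clone's ratios in the other comparisons stayed in, so those fits do not leave out the clone. When the RNAs shared between ratios were modelled, 21 Zfp genes were called (9.85% of all genes). Those 21 were Zfp91, Zfp148, Zfp296, Zfp367, Zfp371, Zfp428, Zfp469, Zfp654, Zfp704 and Zfp710, higher, and Zfp30, Zfp189, Zfp287, Zfp334, Zfp503, Zfp523, Zfp579, Zfp608, Zfp623, Zfp647 and Zfp664, lower. No other Zfp call against wild type held in that fit, and Zfp428 was saturated on all 4 arrays.

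In the Dnmt1 line over Dicer-null, 18 Zfp genes were higher and 31 lower. That is 7.93% and 13.7%, beside 12.1% and 10.8% of all genes tested (22.8% in either direction). In the Dnmt3a,3b line over Dicer-null, 14 were higher and 40 lower, or 6.17% and 17.6%, beside 10.5% and 10.6% of all genes (21.1% in either direction). The median log2 ratio of the Zfp genes was -0.06 in the Dnmt1 line and -0.07 in the Dnmt3a,3b line, against 0.01 for all genes in both. At least 2-fold changes were called for 2 higher and 0 lower Zfp genes in the Dnmt1 line (2.35% and 1.62% of all genes tested) and for 3 higher and 3 lower in the Dnmt3a,3b line (1.91% and 1.71%). These comparisons share the Dicer-null parents, whose RNA preparations the labels do not name, and their counts cannot be taken as independent of each other. With shared RNAs modelled, 7 genes were called in the Dnmt1 line (Zfp28, Zfp51, Zfp287, Zfp292, Zfp296, Zfp523 and Zfp654) and 8 in the Dnmt3a,3b line (the same 7 and Zfp160), and no other Zfp call in these lines held in that fit, where 2.26% and 1.94% of all genes were called. In the Dnmt1 line more Zfp genes, and more of all genes tested, were called without its 27G5 ratio, and fewer of both without its 27H10 ratio. In the Dnmt3a,3b line the Zfp calls were lost with either of its ratios left out, and so were nearly all calls among the genes tested. The clone's ratios in the other comparisons stayed in these fits too.

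**Figure D1:**
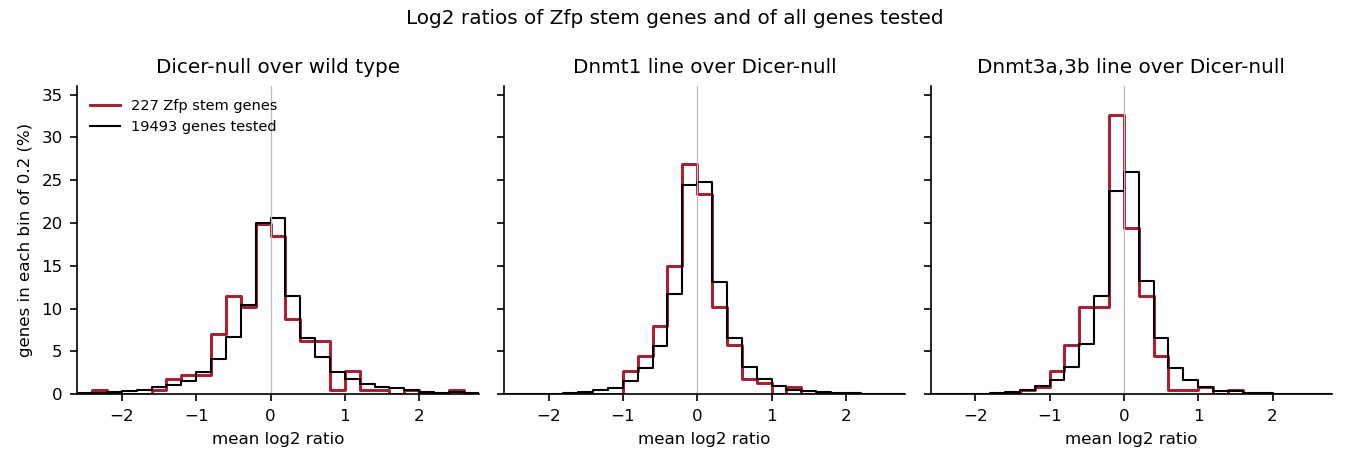
Share of genes (%) in each bin of 0.2 of the mean log2 ratio, for the 227 Zfp stem genes and for all 19493 genes tested, in the 3 comparisons. The Zfp curve has its median at -0.06, -0.06 and -0.07, and the curve of all genes at 0.01 in each.

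Few of the Zfp genes known for silencing were measured. Of 8 listed genes of retroelement and imprint silencing, 2 had a kept probe, and both are KRAB proteins that keep methylation at imprinting control regions. Zfp445 read -0.42 and -0.63 on the arrays of 27G5 and -0.49 and -0.61 on those of 27H10 in Dicer-null over wild type. All 4 arrays lay below 0, and the mean of -0.54 ± 0.02 (SD, n = 2) was a 1.45-fold lower level (adjusted p = 0.0045). Its mean was -0.47 in the Dnmt1 line (adjusted p = 0.0154) and -0.59 in the Dnmt3a,3b line (adjusted p = 0.00933) over Dicer-null. Zfp57 read 0.88 and 0.07 in 27G5 and 0.95 and 0.34 in 27H10, higher in Dicer-null than in wild type with a mean of 0.56 ± 0.12 (SD, n = 2; adjusted p = 0.0253). The dye-swapped arrays of Zfp57 differed by more than its clones did. In the Dnmt lines the Zfp57 means were -0.15 and 0.02, with adjusted p of 0.489 and 0.943.

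Of 9 listed ES cell regulators 7 were measured, and 3 were higher and none lower in Dicer-null than in wild type, beside 20.5% and 20.2% of all genes tested. Zfp296, an ES cell factor that enhances reprogramming to pluripotency, read 1.16 and 0.84 in 27G5 and 1.27 and 0.83 in 27H10. Its mean of 1.03 ± 0.04 (SD, n = 2) was a 2.04-fold higher level in Dicer-null cells (adjusted p = 0.000495). Over Dicer-null, Zfp296 read -0.75, -1.02, -0.90 and -1.18 in the Dnmt1 line, and in the Dnmt3a,3b line -0.65, -0.90, -0.62 and -0.89. It thus fell in both lines on every array, with means of -0.96 ± 0.11 (adjusted p = 0.00289) and -0.76 ± 0.02 (adjusted p = 0.00487; SD, n = 2 each), and both calls held with shared RNAs modelled. Its second probe read 0.97 over wild type and -0.83 and -0.59 in the Dnmt1 and Dnmt3a,3b lines. Zfp148, which binds GC-rich promoters, was higher in Dicer-null cells with 1.06 in 27G5 and 1.16 in 27H10 (adjusted p = 0.00157), although the lowest of its 4 probes read 0.07. Zfp217 lay at the threshold (0.50 and 0.41, adjusted p = 0.05 after rounding, counted as called) and did not pass with the scanner's ratios (adjusted p = 0.0686). Zfp206, now Zscan10, a regulator of ES cell self-renewal, did not pass in Dicer-null over wild type (mean 0.13) and was lower in the Dnmt1 line (-0.53 in 27G5 and -0.54 in 27H10, adjusted p = 0.0122) and the Dnmt3a,3b line (-0.38 and -0.36, adjusted p = 0.0324, and 0.074 with median centring). Zfp143, Zfp207 and Zfp462 passed in none of the 3 comparisons.

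Among Zfp genes that act on RNA, with 7 measured of 9 listed, 1 was higher and 1 lower in Dicer-null than in wild type, a share below the 20.5% and 20.2% of all genes tested. Zfp385 (Zfp385a), an RNA-binding protein, was higher at 0.67 in 27G5 and 0.58 in 27H10 (adjusted p = 0.0023), and lower over Dicer-null in the Dnmt1 line (mean -0.45) and the Dnmt3a,3b line (mean -0.51). As a mean over its 3 probes Zfp385 did not pass in the Dnmt lines (adjusted p = 0.113 and 0.207). Zfp106 was lower in Dicer-null cells at -0.68 and -0.40 (adjusted p = 0.0366), but its mean over 4 probes was -0.03 (adjusted p = 0.853). Zfp326, which links elongation by RNA polymerase II to splicing, was lower by a mean of -0.49 in the Dnmt1 line and -0.51 in the Dnmt3a,3b line. Zfp346, which binds double-stranded RNA, was higher in the Dnmt1 line with unequal clones, 0.36 in 27G5 and 0.97 in 27H10 (adjusted p = 0.0293). Zfp36, which speeds decay of AU-rich messages, and the ribosome factors Zfp598 and Zfp622 passed in no comparison, with means between -0.29 and 0.19.

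Of 12 listed genes of signalling and differentiation 11 were measured, 2 of them higher and 4 lower in Dicer-null than in wild type, where 20.5% and 20.2% of all genes tested were. Zfp521, which promotes neural differentiation of ES cells, read -1.31, -0.71, -1.71 and -1.13 on the 4 arrays. Its mean of -1.22 ± 0.29 (SD, n = 2) was a 2.32-fold lower level (adjusted p = 0.00283). Over Dicer-null it read 0.80, 1.16, 1.09 and 1.95 in the Dnmt1 line and 0.86, 2.10, 1.02 and 1.70 in the Dnmt3a,3b line. Zfp521 thus rose on every array of both lines, with means of 1.25 (adjusted p = 0.0074) and 1.42 (adjusted p = 0.00603), but none of its 3 calls held with shared RNAs modelled. The size of its ratios depended on the processing. Across the alternatives they ran from -2.38 to -1.01 over wild type, 0.98 to 2.49 in the Dnmt1 line and 1.36 to 2.53 in the Dnmt3a,3b line. Its paralogue Zfp423, a factor of adipocyte commitment and BMP signalling, was also lower in Dicer-null cells (-0.85 in 27G5 and -0.39 in 27H10, adjusted p = 0.0193). In the Dnmt lines Zfp423 had means of -0.12 and 0.13 that did not pass. The Zfp503 signal in Dicer-null cells was not well above background, so its ratio is a bound, at least 1.58-fold lower than in wild type (adjusted p = 0.0015). Zfp467, a factor of fat and bone cell fate, was lower with a mean of -0.40 (adjusted p = 0.0138), and -0.78 to -0.35 across the alternatives. Zfp704 (0.99 in 27G5 and 1.21 in 27H10, adjusted p = 0.000666) and Zfp516, a factor of brown fat (0.67 and 1.46, adjusted p = 0.0081), were higher in Dicer-null cells.

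Over all 227 genes, Zfp371 had the largest ratio of Dicer-null to wild type. This gene, now Zscan5b, carries a SCAN domain, which pairs such proteins with each other. It read 2.62 and 2.55 in 27G5 and 2.59 and 2.59 in 27H10, a 6.02-fold higher level in Dicer-null cells (adjusted p = 0.00018). Over Dicer-null it read -0.38 in 27G5 and 0.09 in 27H10 of the Dnmt1 line, and its mean was 0.04 in the Dnmt3a,3b line. Neither passed. Zfp367 followed with a mean of 1.92 ± 0.04 (SD, n = 2; adjusted p = 0.000399), but another of its 3 probes read -0.18. Zfp78 (mean 1.43) and Zfp91, a ubiquitin ligase of the non-canonical NF-kappaB pathway (mean 1.20), were next, and the lowest probe of each read 0.74 and 0.11. Beyond these and Zfp148, the other 37 genes called higher lay below 1.11 and no lower than 0.30.

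At the other end stood Zfp608, known in mouse for lowering Rag gene expression in thymocytes. It read -2.25 and -2.10 in 27G5 and -2.43 and -2.38 in 27H10, a 4.90-fold lower level in Dicer-null cells than in wild type (adjusted p = 0.000139). Its second probe read -1.06, and the means in the Dnmt lines, -0.11 and -0.15, did not pass. Zfp287, a SCAN and KRAB protein, read -1.51, -1.26, -1.60 and -1.26 over wild type. That mean of -1.41 ± 0.03 (SD, n = 2) was a 2.65-fold lower level in Dicer-null cells (adjusted p = 0.000259). Zfp358 (-1.29), Zfp30 (-1.24) and Zfp647 (-1.23) were the next lowest, and the other 57 genes called lower lay between -1.22 and -0.28. Beside Zfp503, the ratios of Zfp334 and Zfp352 are bounds: Zfp334 was at least 1.73-fold lower and Zfp352 at least 1.66-fold higher in Dicer-null cells than in wild type (adjusted p = 0.0015 and 0.00689).

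Zfp287 had the largest rise of these genes in the Dnmt1 line over Dicer-null. It read 1.49 and 1.48 in 27G5 and 1.09 and 1.49 in 27H10, a 2.62-fold higher level (adjusted p = 0.00177), and in the Dnmt3a,3b line 0.72, 1.35, 0.92 and 1.20, a 2.06-fold higher level (adjusted p = 0.00313). All 8 of these arrays lay above 0, and both calls held with shared RNAs modelled. Zfp523, related to Zfp143, read 0.83, 0.98, 0.89 and 0.87 in the Dnmt1 line and 0.76, 0.91, 0.83 and 0.91 in the Dnmt3a,3b line, with adjusted p of 0.00289 and 0.00344. It was lower in Dicer-null than in wild type (mean -0.61, adjusted p = 0.00179). Zfp422 (means 0.91 and 1.08) and Zfp202, whose human counterpart represses genes of lipid metabolism (means 0.88 and 0.78), were higher in the Dnmt1 and the Dnmt3a,3b line and lower in Dicer-null than in wild type (means -1.07 and -0.41). Dicer-null is on top of the ratio to wild type and below the ratios of the Dnmt lines, so these values are set side by side only.

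Among the falls, Zfp292 read -0.84, -0.77, -0.92 and -0.77 in the Dnmt1 line and -1.31, -1.05, -1.14 and -1.01 in the Dnmt3a,3b line, over Dicer-null. Those means of -0.82 ± 0.03 and -1.13 ± 0.07 (SD, n = 2 each) passed at an adjusted p of 0.00327 and 0.00247, and both held with shared RNAs modelled. Zfp28, a KRAB gene, did so too, with means of -0.83 (adjusted p = 0.00358) and -0.88 (adjusted p = 0.00365). Zfp654 had a mean of -0.95 in the Dnmt1 line and -1.28 in the Dnmt3a,3b line, but its second probe read 0.07 and 0.04. The other falls beyond the 5 largest lay between -0.75 and -0.32 in the Dnmt1 line (26 genes) and between -0.93 and -0.32 in the Dnmt3a,3b line (35 genes).

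**Figure D2:**
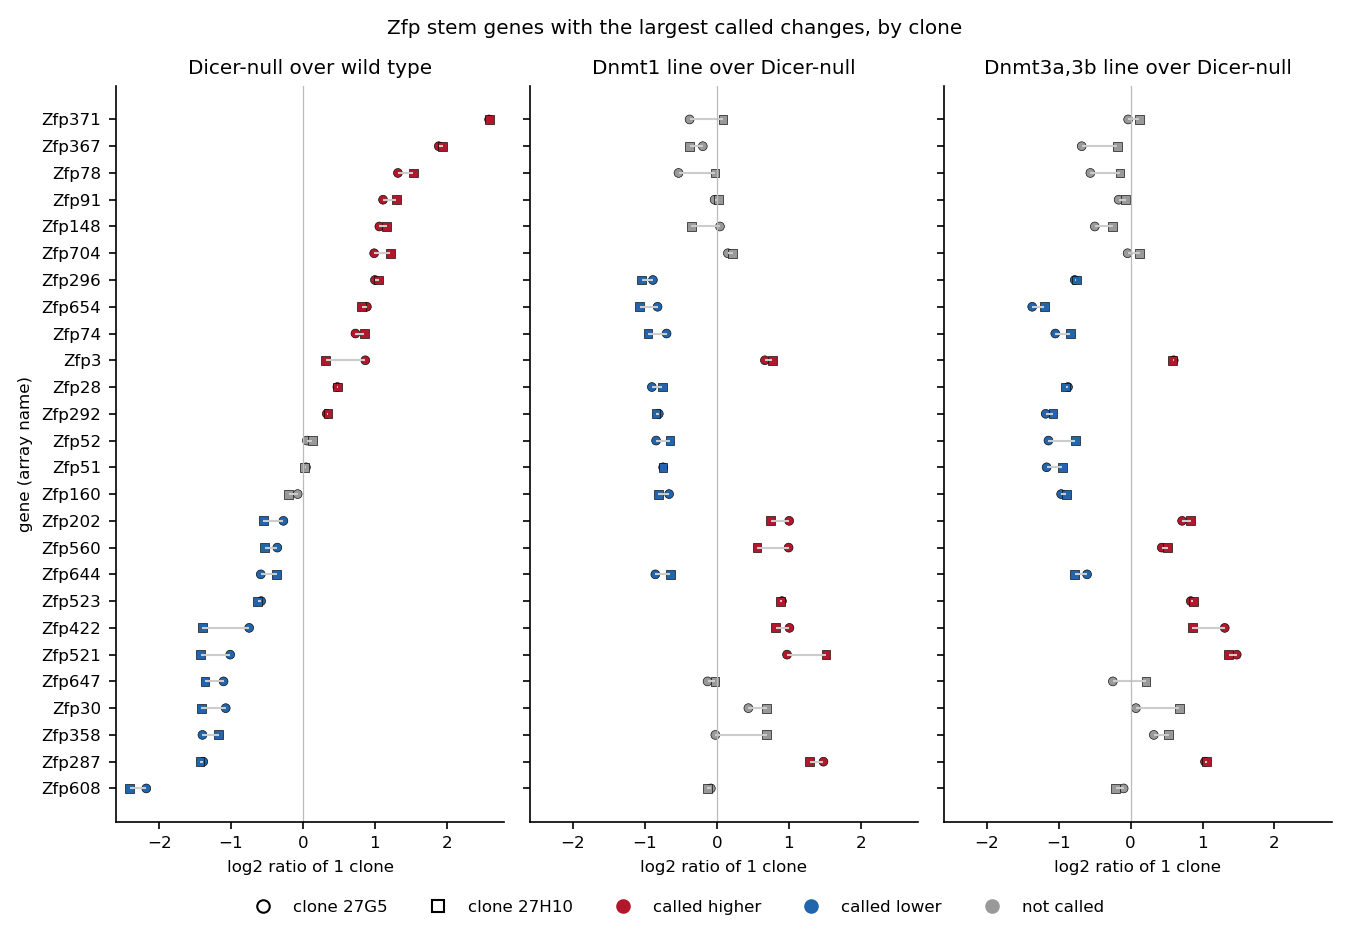
Log2 ratio in each clone (circle 27G5, square 27H10) for the Zfp stem genes that lead the called changes in the 3 comparisons, sorted by Dicer-null over wild type. Zfp371 reads 2.59 in both clones, and Zfp287 has a mean of -1.41 over wild type and 1.39 and 1.05 in the Dnmt1 and Dnmt3a,3b lines.

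Chromosome position was given for 224 of the genes, on mouse build mm7. With neighbours at most 500 kb apart, 85 genes fell into 17 groups of 3 or more, 43 of them on chromosome 7. In Dicer-null over wild type, 14 genes in groups were higher and 21 lower, beside 27 and 40 of the 139 genes known to lie outside. Over Dicer-null the groups held 4 higher and 14 lower genes in the Dnmt1 line, beside 14 and 15 outside, and in the Dnmt3a,3b line 2 higher and 17 lower, beside 12 and 21 outside. Among all genes tested 20.5% were higher and 20.2% lower in Dicer-null over wild type. Those shares were 12.1% and 10.8% in the Dnmt1 line and 10.5% and 10.6% in the Dnmt3a,3b line. On chromosome 17, 7 of 19 Zfp genes were lower in the Dnmt1 line and 12 of 19 in the Dnmt3a,3b line. Of 908 other genes tested on that chromosome 10.4% and 10.5% were lower.

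The 5 genes Zfp160, Zfp54, Zfp51, Zfp53 and Zfp52 stand in that order within chr17:19204687-19743111 (mm7). In Dicer-null over wild type none of them passed, and their means lay between -0.14 and 0.09. The Dnmt1 line had 4 of the 5 lower than in Dicer-null, with a median of -0.74, and the Dnmt3a,3b line all 5, with a median of -0.93. Zfp51 read -0.81 and -0.68 in 27G5 and -0.75 and -0.74 in 27H10 in the Dnmt1 line, and -1.26, -1.07, -1.01 and -0.89 in the Dnmt3a,3b line. Its means of -0.75 (adjusted p = 0.0054) and -1.06 (adjusted p = 0.00322) were 1.68-fold and 2.08-fold lower levels, and both calls held with shared RNAs modelled. Zfp160 read -0.71, -0.62, -0.85 and -0.77 in the Dnmt1 line and -1.11, -0.82, -1.01 and -0.78 in the Dnmt3a,3b line (adjusted p = 0.0054 and 0.00392). Zfp52 had means of -0.75 and -0.96 (adjusted p = 0.0109 and 0.00648). Zfp53 and Zfp54 fell less, by 0.43 and 0.52 on the log2 scale in the Dnmt3a,3b line, and Zfp54 did not pass in the Dnmt1 line (-0.28, adjusted p = 0.0868) nor Zfp53 in the Dnmt3a,3b line with median centring (adjusted p = 0.0754). No array of either line lay above 0 for any of the 5. The 3 other genes tested between them had medians of -0.06 in the Dnmt1 line and -0.19 in the Dnmt3a,3b line, with 1 called higher in the Dnmt1 line. With shared RNAs modelled, 1 and 2 of the 5 remained called. With either Dnmt3a,3b ratio left out their calls in that line were lost, as were nearly all calls there among the genes tested. Their medians in those fits were -0.77 and -0.96. Trophoblast markers moved in the same lines, and their part in this was not tested.

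**Figure D3:**
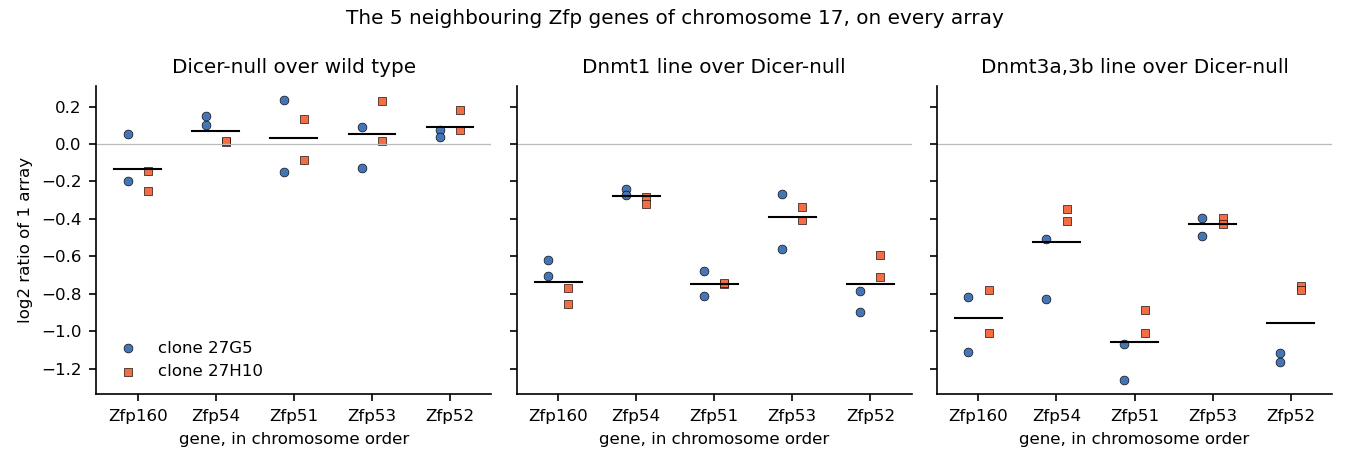
Log2 ratio on every array (2 per clone) for the 5 neighbouring Zfp genes of chromosome 17, with the mean of the clones as a line. All arrays lie below 0 in the Dnmt1 and the Dnmt3a,3b line over Dicer-null, where the medians of the 5 genes are -0.74 and -0.93, and they scatter around 0 in Dicer-null over wild type.

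Sequences show how alike these genes can look to a probe. The probes of Zfp51, Zfp52, Zfp97 and Zfp72 are printed below as the array gives them. Capitals mark the linker between fingers, with codons of threonine, glycine, glutamate, lysine and proline in a row. The letters searched allow any base at the third positions and leave out the last base of proline. For glutamate and lysine that is looser than the code. They lie at chr17:19644483-19644542, chr17:19743052-19743111 and chr17:15490861-15490920 on the plus strand and at chr13:71304043-71304102 on the minus strand (mm7). Which exon or untranslated part each probe meets was not analysed here.
Zfp51: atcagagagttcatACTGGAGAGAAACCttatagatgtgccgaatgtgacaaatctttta
Zfp52: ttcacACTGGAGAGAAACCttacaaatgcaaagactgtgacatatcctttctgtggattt
Zfp97: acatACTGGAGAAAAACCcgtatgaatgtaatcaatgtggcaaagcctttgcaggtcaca
Zfp72: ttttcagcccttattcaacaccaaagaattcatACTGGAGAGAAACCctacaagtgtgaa

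Searched on both strands, these letters stood in 35 of 41174 probes on the chip (0.085%), in 11 of the 461 Zfp probes (2.39%) and in the chosen probe of 6 of the 227 genes. The other chosen probes with the letters were those of Zfp146, whose calls were lost as a mean over its probes (adjusted p = 0.0813 in the Dnmt1 line and 0.0616 in the Dnmt3a,3b line), and Zfp248. In the Dnmt3a,3b line all 6 were lower than in Dicer-null, with a median of -0.67, and in the Dnmt1 line 4 of 6 were, with a median of -0.51. Among the 221 genes without the letters, 34 were lower in the Dnmt3a,3b line and 27 in the Dnmt1 line, with medians of -0.07 and -0.06. The probe of Zfp51 shared up to 46 of its 60 bases with the probe of another gene, that of Zfp52 43, that of Zfp97 48 and that of Zfp72 39. How much RNA of related genes these probes bind was not tested. Second probes read alike for Zfp51 (-0.76 in the Dnmt1 line and -1.22 in the Dnmt3a,3b line) and Zfp52 (-0.69 and -0.98), but not for Zfp72 (-0.08 and -0.13, against -0.60 and -0.72 on its chosen probe). On Zfp97 the dye-swapped arrays differed widely, with 0.01 and -1.24 in 27G5 of the Dnmt3a,3b line.

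Another group of chromosome 17, of 4 genes, had Zfp81 (mean -0.67) and Zfp101 (-0.57) lower in the Dnmt1 line, and these and Zfp472 lower in the Dnmt3a,3b line (-0.80, -0.63 and -0.34). With the clone as a block Zfp472 had an adjusted p of 0.0567. Zfp414, in the same group, passed in neither. On chromosome 15 the changes were in the other comparison. Zfp251, Zfp7 and Zfp647, within chr15:76934154-76992576 (mm7), were all 3 lower in Dicer-null than in wild type, with means of -1.06, -0.56 and -1.23 and a median of -1.06. The 3 other genes tested between them had a median of -0.06 and no call. Nearby, Zfp41 (-0.75) and Zfp623 (-1.11) were lower too and Zfp707 (-0.30) did not pass (adjusted p = 0.0762, and 0.0357 with the clone as a block). In this second group 6 of the 13 other genes between them were lower as well, and 1 was higher. None of these 6 chromosome 15 genes passed in the Dnmt lines. Of all 10 Zfp genes on chromosome 15, 6 were lower in Dicer-null than in wild type. So were 8 of 12 on chromosome 9 and 6 of 10 on chromosome 8, but 2 of 19 on chromosome 17. Among 769 other genes tested on chromosome 15, 22.6% were lower.

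The groups on chromosome 7 were mixed. One group of 6 held Zfp371, Zfp78 and Zfp28, all higher in Dicer-null than in wild type (2.59, 1.43 and 0.48), and Zfp667 (-0.61) and Zfp444 (-0.38), both lower. A group of 10 held Zfp74, higher in Dicer-null cells at 0.79, and Zfp30, lower at -1.24. Of all 58 Zfp genes on chromosome 7, 18 were higher and 10 lower in Dicer-null than in wild type. Among 1426 other genes tested on that chromosome 17.3% were higher and 20.4% lower.

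**Figure D4:**
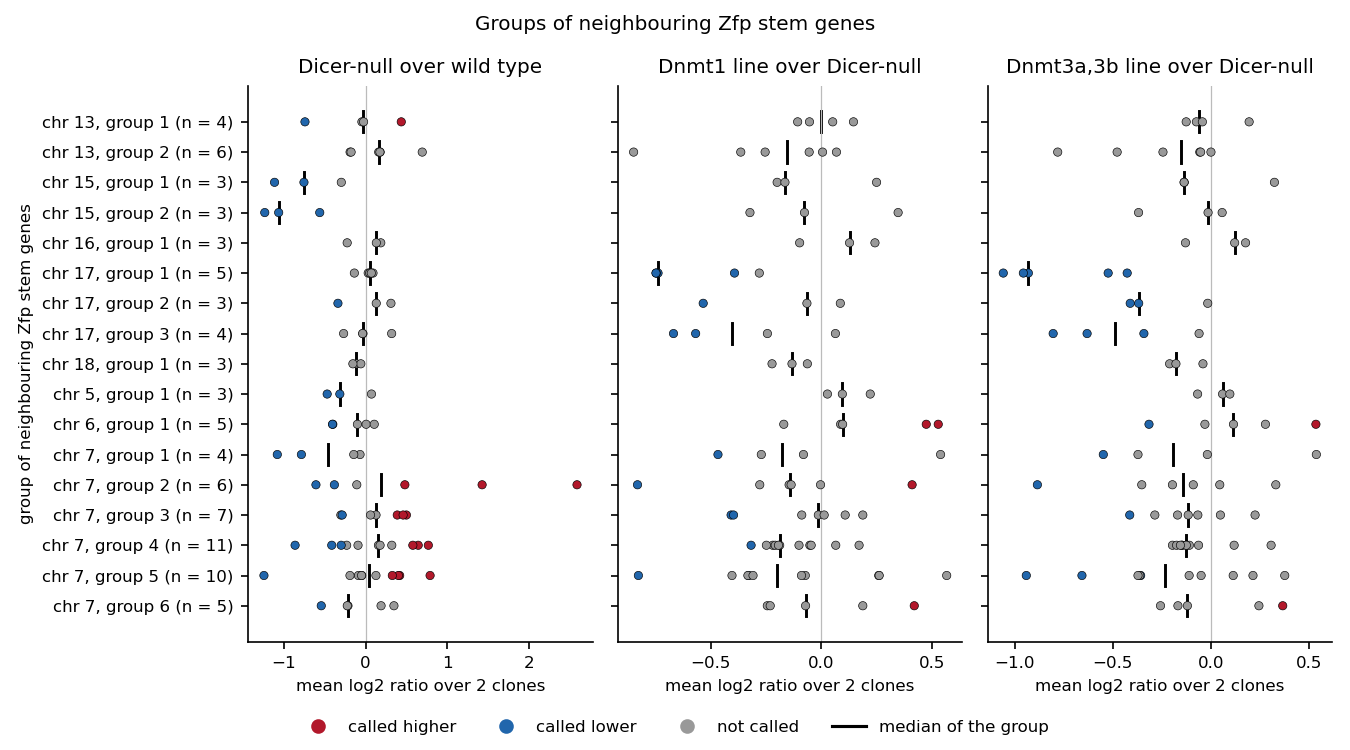
Mean log2 ratio over 2 clones of each gene (point) in the 17 groups of neighbouring Zfp stem genes, with the median of each group as a line and calls in colour. Group 1 of chromosome 17 has all 5 genes called lower in the Dnmt3a,3b line, and group 2 of chromosome 15 has all 3 called lower in Dicer-null over wild type.

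Of 26 listed partners of KRAB proteins 25 were measured, and 16 of them did not pass the test in Dicer-null over wild type. There 4 were higher and 5 lower, beside 20.5% and 20.2% of all genes tested. In each Dnmt line over Dicer-null 1 was higher and 3 lower, beside 12.1% and 10.8% of all genes in the Dnmt1 line and 10.5% and 10.6% in the Dnmt3a,3b line, shares of the list near or below those of all genes. Trim28, the common corepressor, passed in none of the 3 comparisons (0.19, 0.05 and -0.06). Setdb1 (0.89) and its cofactor Atf7ip (0.89), the H3K9 methyltransferase Ehmt2 (0.39) and the remodeller Smarcad1 (0.33) were higher in Dicer-null cells. The H3K9 methyltransferase Suv39h1 (-1.39), Pphln1 (-1.05) and Mphosph8 (-0.31), both of the HUSH silencing complex, and the HP1 genes Cbx3 (-0.63) and Cbx1 (-0.36) were lower. Suv39h1 was the gene higher in both Dnmt lines, at 1.02 in the Dnmt1 line and 0.96 in the Dnmt3a,3b line. The HP1 gene Cbx5 was lower in both (-0.66 and -0.66), and so was Smarcad1 (-0.37 and -0.53). Morc3 was the third lower gene in the Dnmt1 line (-0.33) and Mphosph8 in the Dnmt3a,3b line (-0.29).

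The Dnmt3a,3b line was also set against the Dnmt1 line, through the Dicer-null parent that both share. None of the 227 Zfp genes passed by limma, and none of all 19493 genes did (0%). At an unadjusted p under 0.05 there were 4 Zfp genes (1.76%) and 181 genes in all (0.929%). The ratios of the Zfp genes lay between -0.35 and 0.28, with a median of -0.03. For the 5 neighbouring chromosome 17 genes they lay between -0.31 (Zfp51) and -0.03 (Zfp53), all below 0, with an unadjusted p of 0.0375 for Zfp51. Their median was -0.21, and the 3 other genes tested between them had a median of -0.37. The shift is thus not particular to the Zfp genes there. The lack of calls does not show that the lines act alike.

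Starts of the genes were compared for CG pairs, the bases that DNA methyltransferases modify. RefSeq promoters (GRCm38.p6, 250 bases before to 50 after the start) matched 180 of the 227 genes, and 47 had none. The Zfp promoters had a median of 17 CG pairs, beside 13 for 17492 protein-coding genes, and 81.1% of them had 10 or more, beside 57.2%. The 17492 were not limited to genes above background in these cells, as the Zfp genes were, so the sets are not matched. Genes called higher in the Dnmt1 line had a median of 22 (n = 15), those called lower 14 (n = 27) and those not called 17 (n = 138). In the Dnmt3a,3b line the medians were 25 (n = 11), 13 (n = 34) and 17 (n = 135). No gene called higher in either line and matched to a promoter had fewer than 16. The counts overlapped, from 16 to 39 for genes called higher and from 4 to 36 for genes called lower in each line. Zfp292, lower in both lines, had 30. In Dicer-null over wild type the medians lay closer, at 18 for genes called higher, 18.5 for genes called lower and 16 for those not called. These are descriptions with no test, and methylation itself was not measured. Medians by call were not computed for all genes tested, so the splits cannot be called particular to the Zfp genes. The promoters of Zfp52, at chr17:21535289-21535588 with 5 CG pairs, and Zfp523, at chr17:28176946-28177245 with 34 (both plus strand, GRCm38.p6), show a low and a high count, with CG pairs in capitals.
Zfp52: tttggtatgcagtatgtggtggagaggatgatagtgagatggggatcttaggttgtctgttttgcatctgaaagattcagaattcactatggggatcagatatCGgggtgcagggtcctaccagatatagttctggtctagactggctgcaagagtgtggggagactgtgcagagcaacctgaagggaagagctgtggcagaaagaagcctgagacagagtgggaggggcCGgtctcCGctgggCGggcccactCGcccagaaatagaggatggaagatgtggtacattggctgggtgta
Zfp523: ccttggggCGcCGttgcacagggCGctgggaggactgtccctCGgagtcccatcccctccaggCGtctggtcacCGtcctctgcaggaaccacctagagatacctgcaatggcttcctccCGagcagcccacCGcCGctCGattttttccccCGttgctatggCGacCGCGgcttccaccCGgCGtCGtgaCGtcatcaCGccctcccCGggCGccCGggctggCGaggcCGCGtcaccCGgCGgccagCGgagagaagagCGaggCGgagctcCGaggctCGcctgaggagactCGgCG

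**Figure D5:**
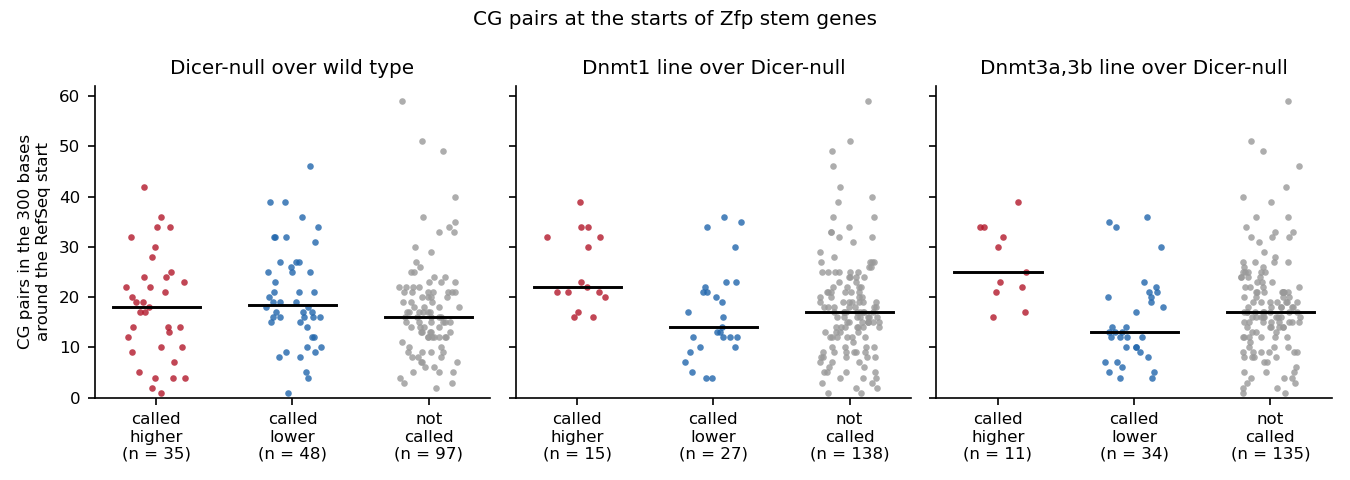
CG pairs in the 300 bases around the RefSeq start of each Zfp stem gene (point), by call in each comparison, with the median as a line. In the Dnmt3a,3b line over Dicer-null the medians are 25 for genes called higher, 13 for genes called lower and 17 for those not called.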

How the data were processed

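Total RNA was hybridised to 12 Agilent 2-colour mouse arrays of 60-base probes. Per the file headers, the deposited scanner files come from Feature Extraction 9.5.1.1 (arrays of the Dnmt1 and Dnmt3a,3b lines) and 9.1.3.1 (arrays with wild type), and hold the mean and background intensity of each spot, flags for spots above background, saturated or outlying (other), and a log10 ratio of red over green. The authors also deposited a value table, which matched log2 ratios of the Dicer-null, Dnmt1 line or Dnmt3a,3b line RNA over its partner (r of 0.968 to 1.00 with the scanner values). The median green signal was 112 to 135 and the median red signal 234 to 334 units per array; the number of arrays, not counts, limits the precision.

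Mean intensities were corrected with normexp (offset 50) and normalised within arrays by loess in limma 3.58.1 (R 4.3.3). Dye-swapped arrays were turned one way and averaged, since they hold the same RNAs. The resulting 6 ratios, 2 clones in each of 3 comparisons, were fitted together over 19493 genes with lmFit and eBayes (3 residual degrees of freedom), with Benjamini-Hochberg adjustment and a threshold of 0.05 for a call. Every adjusted p here is limma's. Log2 ratios have the group named first on top. A ratio is given as a bound where either RNA was well above background on no array of the comparison and its partner on all of them. The fit was also run on simulated ratios that took their spread from the main fit. Their noise was independent between ratios, so that run could not cover RNAs shared between ratios.

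Named genes are the called genes with the largest means and 1 sign on all 4 arrays, role-list genes, genes of chromosome groups, and genes whose clones had opposite signs. The members and lists were chosen with earlier results of these data known. Alternatives were another background correction, median centring, the scanner's and the authors' ratios, other probe filters, the mean over probes, the clone as a block, shared RNAs modelled, a 2-fold threshold and each ratio left out. Probe positions are on mm7, and promoters are from RefSeq on GRCm38.p6; neither was converted to the other. A split by KRAB domain was not made, as no protein sequences were used here.

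The labels give each ratio the clone it came from, which pairs ratios across comparisons; over genes, the clones' deviations correlated at -0.07, -0.13 and 0.37 between the pairs of comparisons.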

Additional observations from a re-analysis of the deposited data

Results flagged for a closer look

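Some Zfp genes had opposite signs in clones 27G5 and 27H10, on both arrays of each clone. That was so for 7 of the 227 genes in Dicer-null over wild type, 24 in the Dnmt1 line and 6 in the Dnmt3a,3b line over Dicer-null, and the named ones are given here as log2 ratios. The difference between the clones was not tested for any of them. In the arrays of the Dnmt lines the clone is also the slide, and these cannot be told apart.

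In Dicer-null cells over wild type, Zfp39 read 0.092 in 27G5 and -0.46 in 27H10, and Zfp711 read 0.30 in 27G5 and -0.18 in 27H10. Zfp112 read 0.37 in 27G5 and -0.053 in 27H10, and Zfp398 read 0.31 in 27G5 and -0.095 in 27H10. Zfp192 read 0.0066 in 27G5 and -0.095 in 27H10, and Zfp282 read 0.14 in 27G5 and -0.12 in 27H10.

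In the Dnmt1 line over Dicer-null, Zfp46 read 0.28 in 27G5 and -0.56 in 27H10, and Zfp512 read -0.51 in 27G5 and 0.28 in 27H10. Zfp35 read 0.25 in 27G5 and -0.52 in 27H10, and Zfp306 read -0.14 in 27G5 and 0.43 in 27H10. Zfp106 read -0.29 in 27G5 and 0.26 in 27H10, and Zfp191 read 0.21 in 27G5 and -0.33 in 27H10. Zfp212 read 0.24 in 27G5 and -0.062 in 27H10, and Zfp371 read -0.38 in 27G5 and 0.086 in 27H10. Zfp61 read 0.042 in 27G5 and -0.24 in 27H10, and Zfp622 read 0.33 in 27G5 and -0.11 in 27H10. Zfp628 read 0.13 in 27G5 and -0.29 in 27H10, and Zfp667 read -0.14 in 27G5 and 0.13 in 27H10. Zfp94 read -0.094 in 27G5 and 0.22 in 27H10.

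In the Dnmt3a,3b line over Dicer-null, Zfp691 read -0.29 in 27G5 and 0.16 in 27H10, and Zfp90 read -0.33 in 27G5 and 0.12 in 27H10. Zfp61 read -0.33 in 27G5 and 0.079 in 27H10, and Zfp14 read -0.067 in 27G5 and 0.29 in 27H10. Zfp516 read -0.20 in 27G5 and 0.086 in 27H10, and Zfp704 read -0.041 in 27G5 and 0.13 in 27H10.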

How the results depend on the processing

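The counts of called Zfp genes, 104 in Dicer-null over wild type, 49 in the Dnmt1 line and 54 in the Dnmt3a,3b line over Dicer-null, stayed within 1.5 times under another background correction, median centring, the scanner's and the authors' ratios, the probe filters and the mean over probes. With shared RNAs modelled they were 21, 7 and 8. With a 2-fold threshold beside the adjusted p they were 21, 2 and 6. Leaving out 1 ratio at a time gave 37 to 120, 29 to 51 and 0 to 73. The lowest counts came where a ratio of the comparison itself was left out, but so did the highest of the Dnmt1 line (without its 27G5 ratio). Calls over all genes tested rose or fell with those of the Zfp genes in these fits. The cause was not tested. For the Dnmt3a,3b line over the Dnmt1 line the count was 0 in every setting (0 to 0 when a ratio was left out). With the clone as a replicate block the counts were 106, 49, 48 and 0. No mean of a named gene that was called turned its sign in any setting; among 5489 repeats of named genes, 378 lost their call and 96 gained one. Neighbour distances of 250 and 1000 kb gave 15 and 20 groups in place of 17, with 73 and 101 genes in place of 85. Limits: the wild type was 1 line, treated as 1 RNA, and both Dnmt lines share the Dicer-null parents, treated as the same RNAs. The labels do not name the RNA preparations. In the arrays of the Dnmt lines clone and slide coincide. Of 117 genes with several probes, 30 had probes of opposite sign in Dicer-null over wild type. Zfp428 was saturated on all 4 arrays of each comparison. The split by KRAB domain was not run.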
